A study of Homo sapiens with 18 samples.

Results

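The comparison described here set olaparib directly against VIC-1911 in C4-2B cells after 7 days. C4-2B is an established human prostate cancer cell line that grows without androgen. The groups were the 3 libraries of cells treated with 1 μM olaparib and the 3 libraries of cells treated with 0.1 μM VIC-1911, which are 6 of the 18 libraries of the series, and the members were the 13838 of 21276 genes that reached 10 counts in 3 or more of these 6 libraries. At the same time point 3 libraries came from cells given the DMSO vehicle alone and 3 from cells given both drugs at those doses. All libraries came from the same line, and the doses of the 2 drugs differ, so the values stand side by side at the doses used. The vehicle and VIC-1911 libraries carry one run of consecutive library numbers and the olaparib and combination libraries a later one. The difference between the single drugs therefore cannot be told apart from a difference between these runs, whereas VIC-1911 against vehicle, and also olaparib with VIC-1911 against olaparib, each lie within a run. The labels do not say whether the 3 libraries of a group came from separate cultures, and p-values then measure only the spread between these libraries.

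VIC-1911 inhibits Aurora kinase A (AURKA), a kinase that acts at centrosomes and on the spindle and whose transcript, like those of most mitotic genes, is made in the G2 and M phases of the cell cycle. Olaparib inhibits poly(ADP-ribose) polymerases, chiefly PARP1 and PARP2, which detect DNA single-strand breaks. It traps these enzymes on DNA, and cells that meet the lesions in S phase rely on homologous recombination to repair them. DNA damage and failed mitosis can both stabilize the transcription factor p53, whose targets include the cell cycle inhibitor CDKN1A (p21) and the ubiquitin ligase MDM2. In bulk RNA, fewer cells in a phase and less RNA of a gene per cell cannot be told apart.

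Libraries of the olaparib group held between 4967931 and 19684208 counts (median 17136707), and those of the VIC-1911 group between 10009912 and 15935359 (median 12704596). Pairs of replicates differed by more than sampling noise, and chi-square per degree of freedom ran from 1.67 to 2.76. Olaparib replicate 1 was the shallowest library and stood apart on the third principal component (−31.2, against 1.21 and −0.31 for the other olaparib libraries), so the leading counts are also given without it. All 10 markers of luminal prostate epithelium had a mean over 1 FPKM (fragments per kilobase of transcript, relative to the reads mapped) in both groups, and their sum was between 3224 and 3404 FPKM under VIC-1911 and between 3035 and 3146 FPKM under olaparib. Of the markers of other cell types, 2 of 5 basal, 2 of 10 neuroendocrine, 1 of 7 fibroblast and 1 of 7 leukocyte markers had a mean over 1 FPKM in each group, and the highest library values were 2.76, 6.47, 2.19 and 10.1 FPKM. The defining markers TP63 of basal cells (0 to 0.00596 FPKM) and PTPRC of leukocytes (0 to 0.00697 FPKM) were at or near 0, and both were picked after their values were seen.

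The promoters of 4 genes of mitosis that were lower under olaparib are shown first, because 37 of 38 members of their list were lower and many of these promoters hold a common short sequence. The 4 were chosen among promoters with a match, and those of KIF20A, CENPE, CCNB1 and PTTG1, also of this list, held none. Capitals mark each match to TTTGAA or, on the other strand, TTCAAA, the core of the cell cycle genes homology region, an element known from promoters of genes expressed in G2 and M phase. The sequences are from RefSeq (GRCh38.p14) and run 5′ to 3′ on the gene's strand from 250 bases before to 50 bases after its start. CDC20, at chr1:43358731-43359030 (plus strand), activates the anaphase-promoting complex. PLK1, at chr16:23678639-23678938 (plus strand), is the mitotic kinase that AURKA activates. ANLN, at chr7:36389612-36389911 (plus strand), encodes anillin, which organizes the cleavage furrow. MKI67, at chr10:128126374-128126673 (minus strand), encodes the proliferation marker Ki-67.
CDC20: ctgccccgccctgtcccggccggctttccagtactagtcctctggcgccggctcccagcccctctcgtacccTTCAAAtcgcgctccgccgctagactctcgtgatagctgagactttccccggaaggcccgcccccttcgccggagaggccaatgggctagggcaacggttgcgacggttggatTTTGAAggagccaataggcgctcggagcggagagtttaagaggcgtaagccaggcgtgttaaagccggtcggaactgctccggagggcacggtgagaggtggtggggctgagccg
PLK1: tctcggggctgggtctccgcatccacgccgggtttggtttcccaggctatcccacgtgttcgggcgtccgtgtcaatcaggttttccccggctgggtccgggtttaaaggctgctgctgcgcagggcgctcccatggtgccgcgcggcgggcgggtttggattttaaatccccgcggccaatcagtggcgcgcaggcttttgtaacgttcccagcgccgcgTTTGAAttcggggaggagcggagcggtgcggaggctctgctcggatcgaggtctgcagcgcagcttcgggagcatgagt
ANLN: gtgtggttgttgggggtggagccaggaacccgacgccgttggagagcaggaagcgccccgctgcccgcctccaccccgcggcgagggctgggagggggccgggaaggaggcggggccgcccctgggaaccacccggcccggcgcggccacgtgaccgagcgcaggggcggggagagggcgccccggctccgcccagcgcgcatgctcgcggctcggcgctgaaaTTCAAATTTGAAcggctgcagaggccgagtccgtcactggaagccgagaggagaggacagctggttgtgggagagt
MKI67: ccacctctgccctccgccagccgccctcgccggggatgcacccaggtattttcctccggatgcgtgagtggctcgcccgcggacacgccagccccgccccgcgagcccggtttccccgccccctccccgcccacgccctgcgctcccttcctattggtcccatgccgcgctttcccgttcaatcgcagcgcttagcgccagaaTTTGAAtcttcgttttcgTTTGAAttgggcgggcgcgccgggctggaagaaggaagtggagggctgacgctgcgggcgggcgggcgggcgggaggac
In PLK1 the match began 29 bases before the RefSeq start, at position −29, and in ANLN, where matches on both strands adjoin, the first began at −26. This motif was found in 28 of the 36 promoters of the mitosis and spindle list that matched the table (77.8%), in 20 of 56 promoters of the genes called lower under olaparib (35.7%) and in 9 of 69 of those called higher. It was found in 990 of 10689 promoters of the genes tested (9.26%) and in 4212 of all 27305 promoters of the table (15.4%). Among the p53 targets 1 of 42 promoters held it (2.38%). The motif was chosen after the values were seen. A match is a description of the sequence and not of binding.

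Genes of mitosis and targets of p53 differed between the single drugs in opposite directions. Transcripts of mitosis and the spindle were lower under olaparib than under VIC-1911, at a median log2 fold change of −0.89 over 38 members, and targets of p53 were higher, with a median of 0.44 over 53 members, against a median of 0.00152 over all genes tested. In edgeR's quasi-likelihood test with Benjamini-Hochberg adjustment, 1581 of the 13838 genes were higher under olaparib (11.4%) and 1770 were lower (12.8%) at an adjusted p under 0.05. These genes are referred to as passing the test. Genes that also differed by at least 2-fold are referred to as called, and these were 88 higher (0.636%) and 73 lower (0.528%). Scaled by upper quartile, 54.6% of the genes that passed were higher, against 47.2% here. Replicates varied by a biological coefficient of 4.43%. In the plot of fold change by level, members of the mitosis list other than CDK1 lie below 0 over the whole range of levels.

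**Figure D1:**
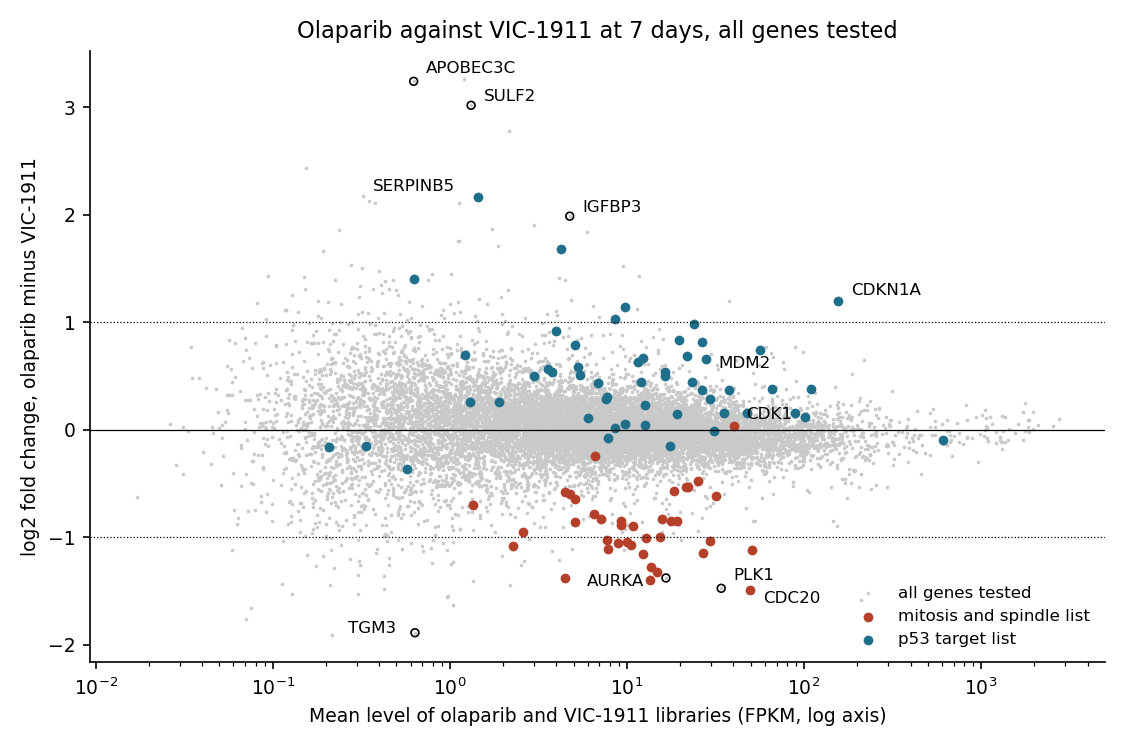
Each point is a gene tested, placed by its mean FPKM in the olaparib and VIC-1911 libraries (log axis) and its log2 fold change, olaparib minus VIC-1911, with dotted lines at 2-fold. Members of the mitosis and spindle list (red, median −0.89) lie below 0 except CDK1, and most members of the p53 target list (blue, median 0.44) lie above 0.

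AURKA itself was lower under olaparib. Its transcript stood at 23.5, 23.0 and 25.9 FPKM in the VIC-1911 libraries and at 9.11, 10.1 and 8.23 FPKM in the olaparib libraries, so the groups did not overlap. The log2 fold change was −1.38 (standard error, SE, 0.09, edgeR quasi-likelihood adjusted p = 1.0e-11). AURKA lies on chromosome 20 from 56369389 to 56392337 (GRCh38), and no other gene of the table overlaps it. In the vehicle libraries it stood at 6.35 ± 1.43 FPKM and in the combination libraries at 6.96 ± 0.378 FPKM (SD, n = 3), so the VIC-1911 libraries were the highest of the 4 groups.

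Partners of AURKA followed the same direction. Of 15 members of the list of AURKA and its partners, 11 passed as lower under olaparib, where 12.8% of all genes did, and without olaparib replicate 1 there were 10. PLK1 stood at 46.5, 51.5 and 53.7 FPKM under VIC-1911 and at 16.1, 20.4 and 16.3 FPKM under olaparib. The log2 fold change of PLK1 was −1.48 (SE 0.11, edgeR quasi-likelihood adjusted p = 2.7e-11), and its annotation overlaps ERN2 by 58 bases. TPX2, which activates AURKA on spindle microtubules, had a log2 fold change of −0.95. TACC3, an AURKA substrate that stabilizes kinetochore fibers, had one of −0.73. BIRC5 (survivin) and AURKB, both of the chromosomal passenger complex, had log2 fold changes of −1.02 and −0.69. AURKC, the Aurora kinase of germ cells, was at 0.452 FPKM on average under VIC-1911 and 0.239 FPKM under olaparib with overlapping libraries, and its log2 fold change of −0.64 did not pass (edgeR quasi-likelihood adjusted p = 0.366).

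Among the 38 genes of mitosis and the spindle, 37 passed as lower under olaparib, 16 of them by at least 2-fold, and in each of these 37 all olaparib libraries lay below all VIC-1911 libraries. Over all genes 12.8% passed as lower, 0.528% by at least 2-fold, and 41.1% had libraries that did not overlap in either direction. The remaining member, CDK1, the kinase that drives entry into mitosis, had a log2 fold change of 0.04 (SE 0.07, edgeR quasi-likelihood adjusted p = 0.736). The 38 log2 fold changes ran from −1.49 in CDC20 to 0.04 in CDK1. CDC20 stood at 71.3, 74.6 and 77.6 FPKM under VIC-1911 and at 21.3, 30.7 and 23.9 FPKM under olaparib, a level 2.82-fold lower (edgeR quasi-likelihood adjusted p = 1.1e-10). Without olaparib replicate 1 the number passing was again 37.

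Kinesins and other structural proteins of mitosis were among the members that passed as lower. KIF20A, a kinesin of the central spindle, stood at 19.4, 20.3 and 19.5 FPKM under VIC-1911 and at 6.51, 7.90 and 7.22 FPKM under olaparib (log2 fold change −1.40), and it overlaps BRD8 and CDC23 at its ends. CENPE, the kinesin that moves chromosomes to the spindle equator, stood at 6.24, 6.85 and 6.28 FPKM and at 2.46, 2.52 and 2.34 FPKM, respectively (log2 fold change −1.38). MKI67 stood at 15.2, 14.7 and 13.1 FPKM under VIC-1911 and at 6.92, 6.78 and 6.48 FPKM under olaparib. In none of these 3 genes did the libraries of the groups overlap, where 41.1% of all genes had no overlap in either direction. ANLN, at 19.7, 20.9 and 21.3 FPKM under VIC-1911 and 10.8, 10.4 and 9.56 FPKM under olaparib, was also lower, as was the condensin subunit SMC4 (log2 fold change −0.85). TOP2A, the topoisomerase that untangles sister chromatids, had a smaller difference of −0.57 on the log2 scale.

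**Figure D2:**
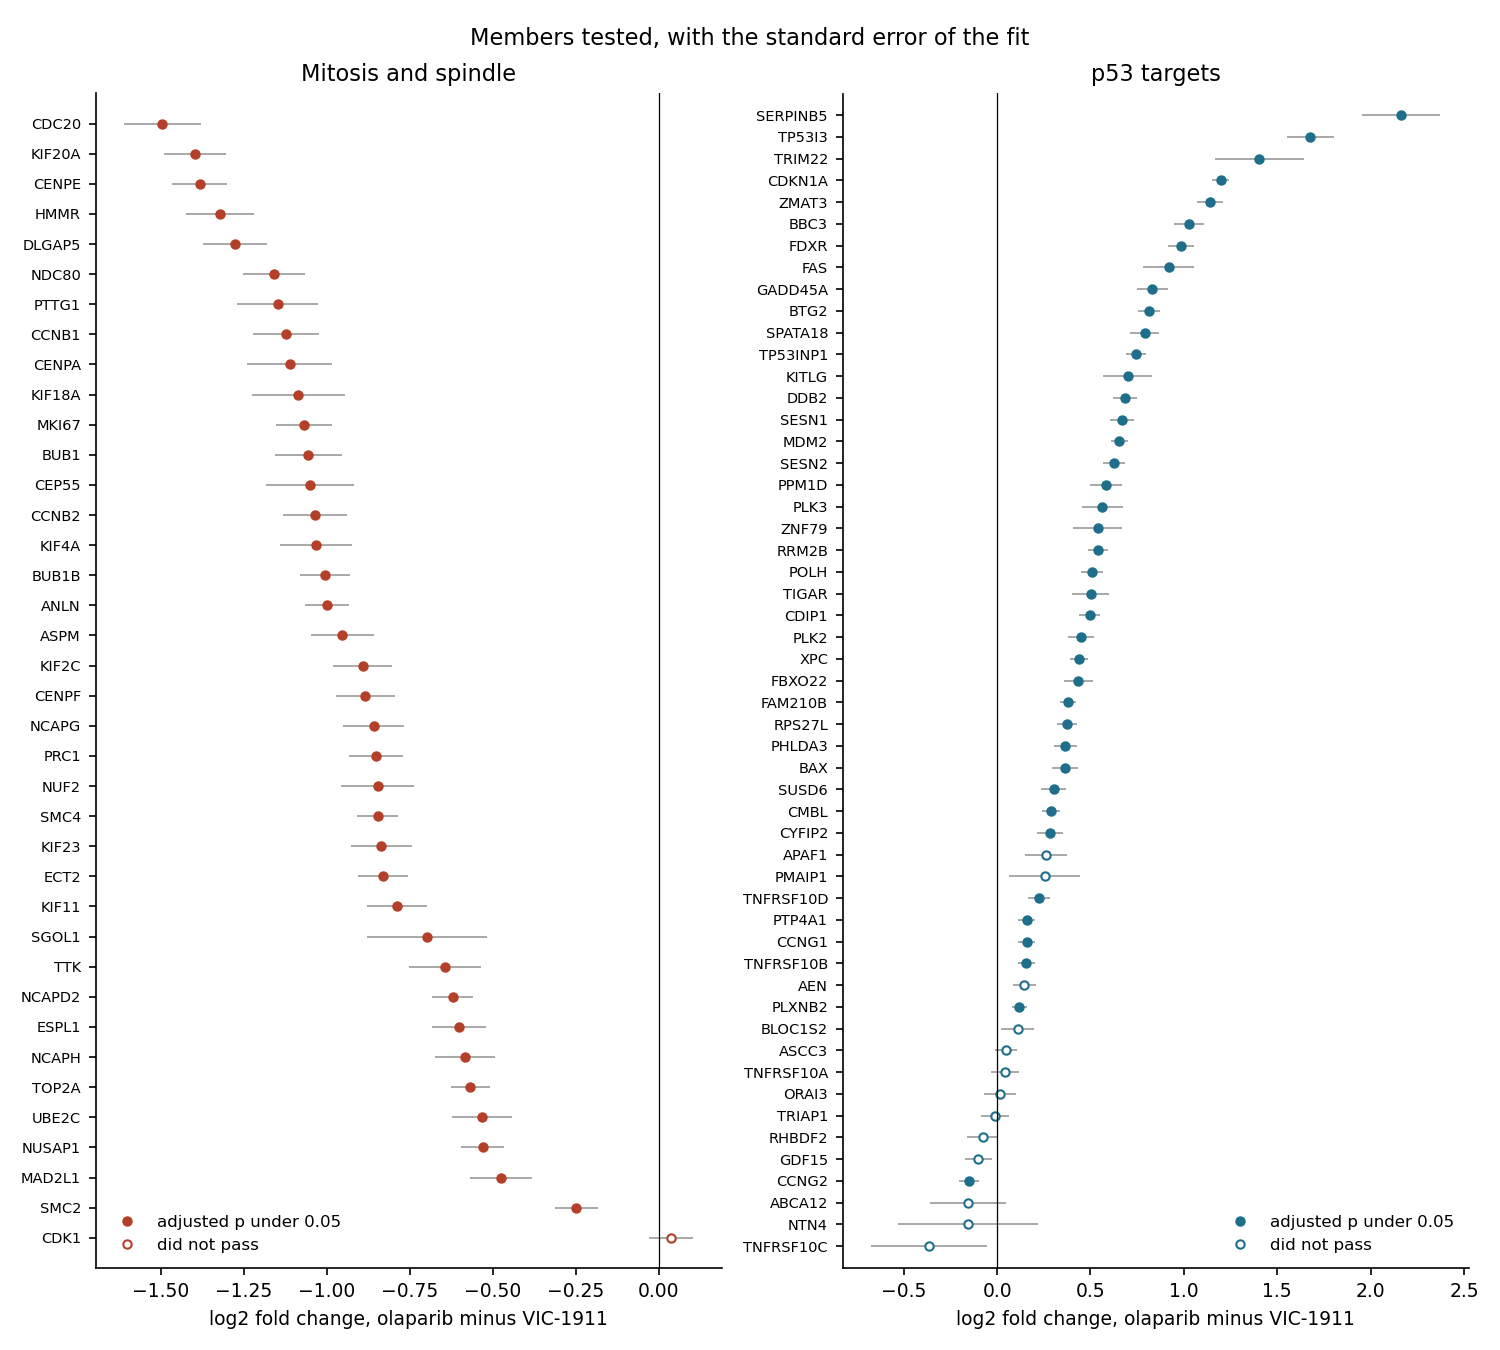
Log2 fold changes, olaparib minus VIC-1911, of the 38 tested members of the mitosis and spindle list and the 53 of the p53 target list, with the standard error of the fit as bars. Filled points had an adjusted p under 0.05 in edgeR's quasi-likelihood test, and the open points of the left panel are CDK1 alone.

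Against vehicle the mitotic genes were high under VIC-1911 and closer to vehicle under olaparib. All 38 members passed as higher in VIC-1911 against vehicle, a comparison within 1 run of libraries, at a median log2 fold change of 1.37, where 27.4% of all genes did. In olaparib against vehicle, across runs, 31 members passed as higher, with a median of 0.46, where 28.6% of all genes did. In the combination against olaparib, again within a run, 36 members passed as lower, with a median of −0.57, where 7.22% of all genes did. These comparisons share libraries with each other and with olaparib against VIC-1911. In the separate libraries of 2 days, 18 of the 38 members passed as lower in VIC-1911 against vehicle, where 7.19% of all genes did, and 1 passed as higher, with a median of −0.21. CDC20 had a log2 fold change of 0.24 at 2 days and passed as higher (edgeR quasi-likelihood adjusted p = 0.0029). The depths and runs of libraries differ between the times as well.

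**Figure D3:**
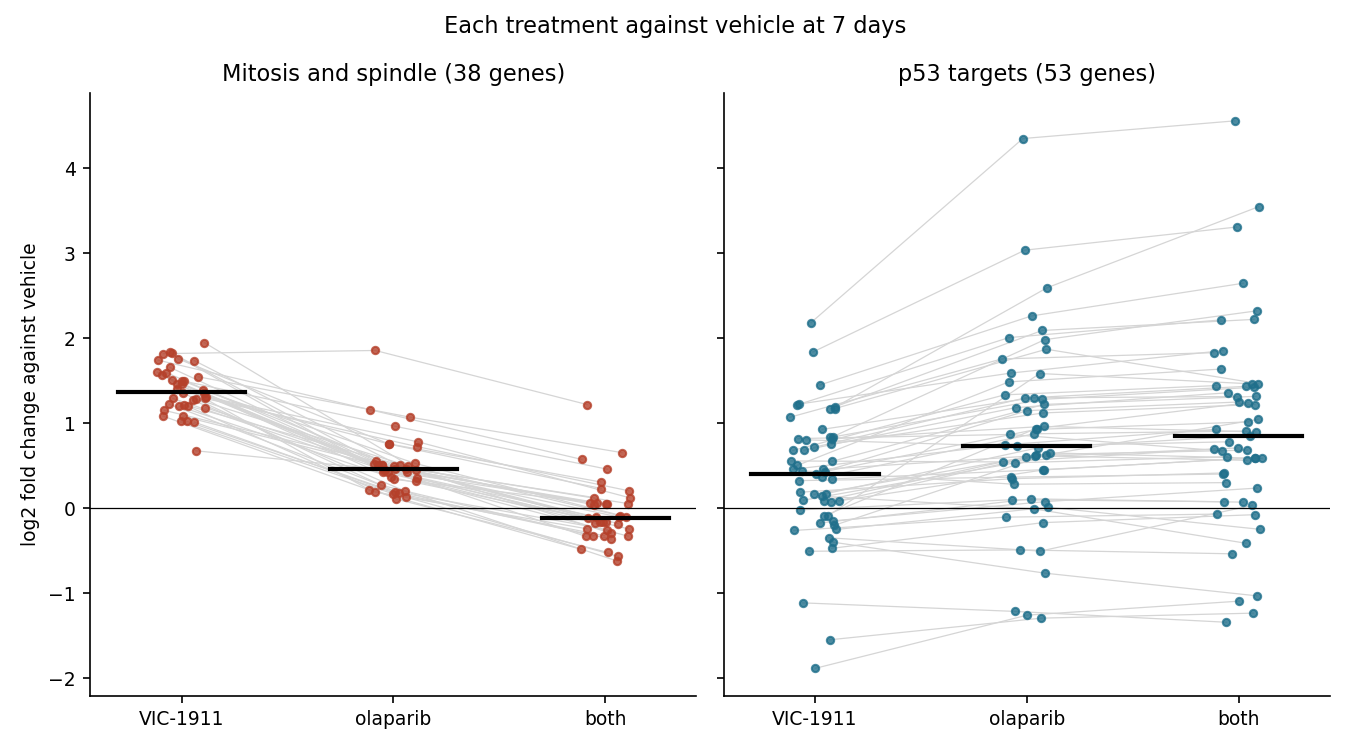
Log2 fold change against vehicle at 7 days of each tested member of the mitosis and spindle list (left, 38 genes) and the p53 target list (right, 53 genes) under VIC-1911, olaparib and both, with gray lines joining a gene and black bars at the medians. Medians for mitosis fall from 1.37 under VIC-1911 to 0.46 under olaparib, and those for p53 targets are 0.41 and 0.73.

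Genes of DNA replication were lower under olaparib by smaller amounts. Of 44 members of the list of DNA replication and E2F targets 29 passed as lower, where 12.8% of all genes did. The median log2 fold change was −0.28, and the number passing was 26 without olaparib replicate 1 and 21 without olaparib replicate 3. CCNA2 (cyclin A2), which acts in both S and G2 phase, had the lowest value of the list, −0.95, with 12.5, 12.1 and 13.3 FPKM under VIC-1911 and 4.58, 7.80 and 5.96 FPKM under olaparib. TK1, the thymidine kinase of S phase, had a log2 fold change of −0.60, the helicase subunit MCM6 one of −0.49 and CDC45, which joins it in the active helicase, one of −0.52. The proportion passing as lower was thus 37 of 38 among the mitotic genes and 29 of 44 among the replication genes.

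The list of tubulins holds α- and β-tubulins, which build microtubules, the rarer tubulins TUBG1, TUBD1 and TUBE1, and the tubulin-binding protein STMN1 (stathmin), and 14 members were tested. Of these 7 passed as lower, STMN1 (−0.35) and TUBG1 (−0.36) among them, and 1 as higher, where 12.8% and 11.4% of all genes did. TUBA1B stood at 304, 291 and 311 FPKM under VIC-1911 and at 194, 225 and 202 FPKM under olaparib (log2 fold change −0.51). TUBB3, the tubulin best known from neurons, went the other way, with 11.7, 13.5 and 12.6 FPKM under VIC-1911 and 17.7, 20.2 and 16.7 FPKM under olaparib (log2 fold change 0.56). TUBB4B and TUBA4A were lower by 0.50 and 0.40 on the log2 scale. Tubulin genes are close copies of each other, and how reads shared between them were counted is not given in the sources used here.

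Among the clustered histone genes and H1F0, 8 of 31 passed as lower, where 12.8% of all genes did. The median log2 fold change was −0.25, and 5 passed as lower without VIC-1911 replicate 3, olaparib replicate 2 or olaparib replicate 3. HIST1H1C, a linker histone, stood at 190, 166 and 212 FPKM under VIC-1911 and at 100, 105 and 103 FPKM under olaparib (log2 fold change −0.85). H1F0, the linker histone of cells that have stopped dividing, was also lower (−0.63). Most histone transcripts lack a poly(A) tail, and the libraries were made from poly(A) RNA.

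Targets of p53 were higher under olaparib. Of 53 members tested, 39 passed as higher, where 11.4% of all genes did, and 6 were called higher, where 0.636% of all genes were. Without olaparib replicate 1 the number was again 39. CDKN1A stood at 93.0, 95.5 and 99.8 FPKM under VIC-1911 and at 210, 219 and 219 FPKM under olaparib. Its level was 2.29-fold higher (log2 fold change 1.20, SE 0.05, edgeR quasi-likelihood adjusted p = 5.1e-17). The 3 vehicle libraries held 28.5, 24.3 and 25.1 FPKM of CDKN1A and the combination libraries 260, 258 and 257 FPKM, so the levels were ordered vehicle, VIC-1911, olaparib and combination without overlap. CDKN1A lies on chromosome 6 from 36676460 to 36687337.

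MDM2, which ubiquitinates p53, stood at 21.9, 21.5 and 22.2 FPKM under VIC-1911 and at 35.0, 33.0 and 33.5 FPKM under olaparib (log2 fold change 0.65). ZMAT3, an RNA-binding protein that alters splicing, stood at 6.96, 5.71 and 5.87 FPKM and at 13.8, 12.1 and 14.1 FPKM, respectively (log2 fold change 1.14). TP53INP1, a cofactor of p53 in stress responses, had a log2 fold change of 0.74, and its annotation overlaps NDUFAF6 by 23407 bases. SERPINB5 (maspin), a serpin without protease inhibitor activity, had the highest value of the list, 2.16 (SE 0.21), and rose from 0.660, 0.331 and 0.628 FPKM under VIC-1911 to 2.15, 2.32 and 2.53 FPKM under olaparib. The 1 member that passed as lower, CCNG2, an atypical cyclin, had a log2 fold change of −0.15 (edgeR quasi-likelihood adjusted p = 0.0435). It did not pass with DESeq2 or upper-quartile factors.

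This list stood above vehicle under each single drug. In VIC-1911 against vehicle 32 of the 53 members passed as higher and 8 as lower, at a median log2 fold change of 0.41, where 27.4% and 26.4% of all genes did. In olaparib against vehicle 40 passed as higher and 7 as lower, with a median of 0.73, where 28.6% and 26.5% of all genes did. The member SESN2 (sestrin 2), which ATF4 also induces, was lower than vehicle under both drugs, by 1.88 on the log2 scale under VIC-1911 and 1.25 under olaparib, and hence higher under olaparib than under VIC-1911 (0.63). In VIC-1911 against vehicle at 2 days, 31 of 49 tested members passed as higher and 2 as lower. The shares of all genes were 7.5% and 7.19%.

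**Figure D4:**
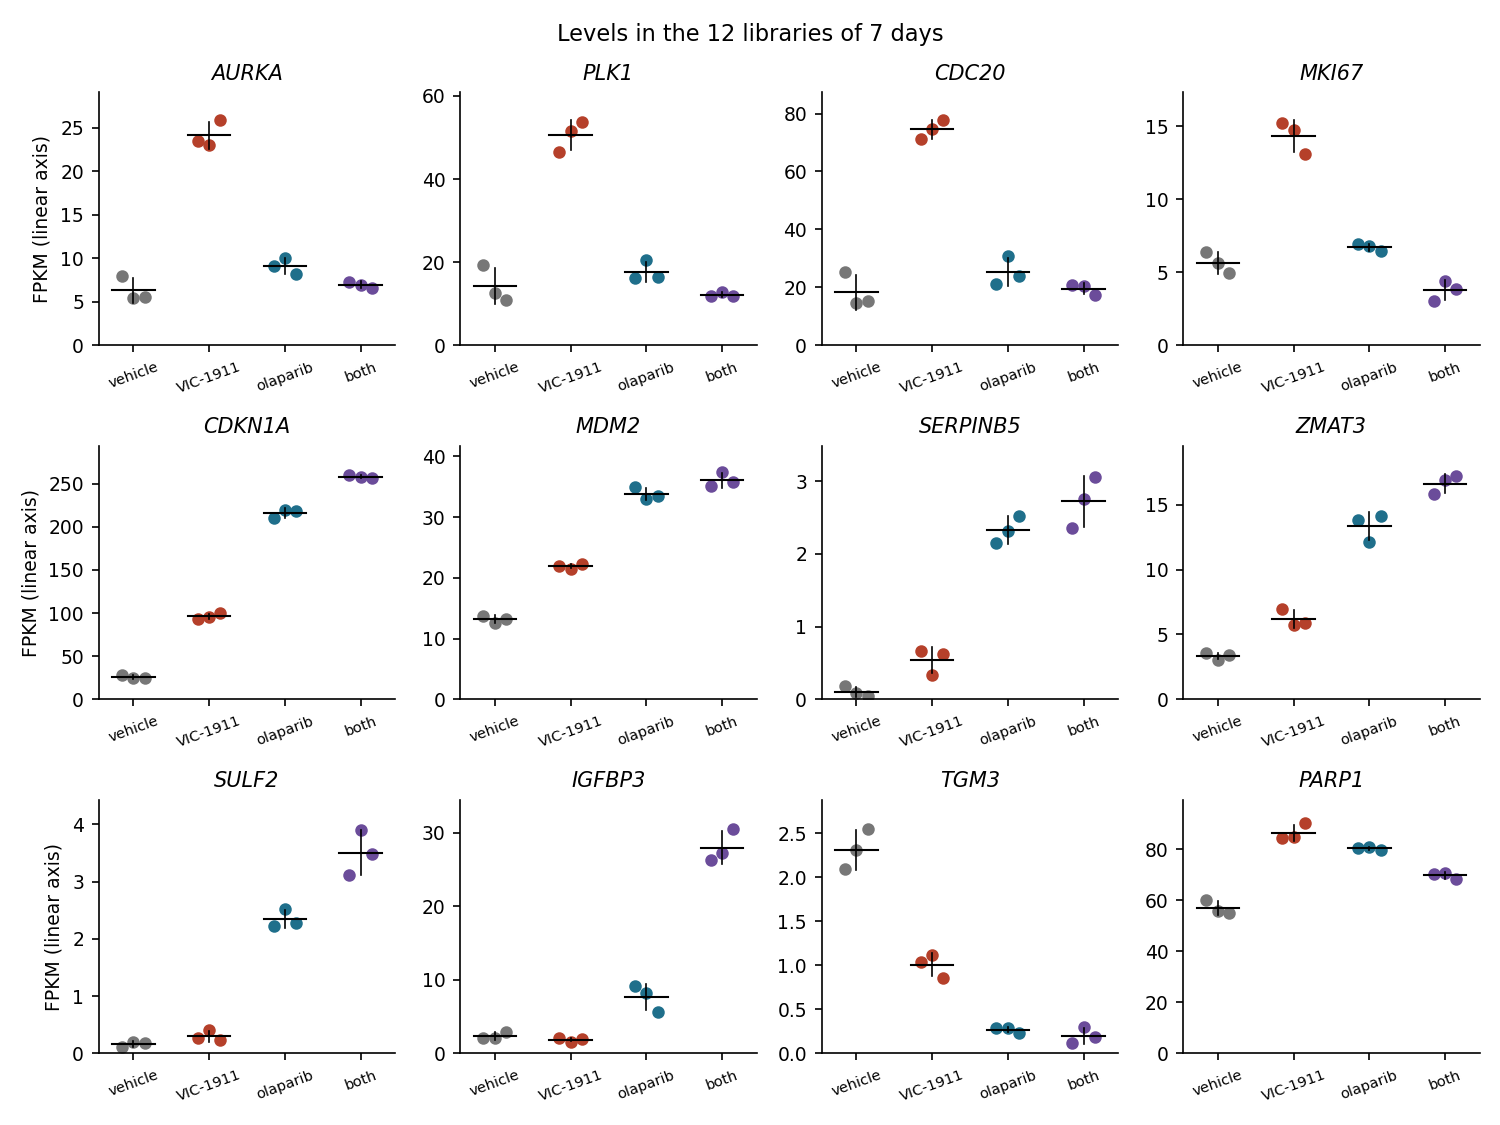
FPKM (linear axes from 0) of 12 genes in the 12 libraries of 7 days, with colored points for libraries, horizontal bars for the mean and vertical bars for the SD of 3 libraries. AURKA, PLK1, CDC20 and MKI67 are highest under VIC-1911, and CDKN1A, MDM2, SERPINB5, ZMAT3, SULF2 and IGFBP3 are higher under olaparib and under both drugs than under VIC-1911.

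Genes of cell death varied by member. Of 30 members of the list of the BCL2 family and cell death, 9 passed as higher and 4 as lower. The shares of all genes were 11.4% and 12.8%. When any 1 library was left out, the members passing as lower were 1 or 2. BBC3 (PUMA), a BH3-only protein and p53 target, stood at 5.66, 5.94 and 5.86 FPKM under VIC-1911 and at 10.1, 12.2 and 11.9 FPKM under olaparib (log2 fold change 1.03). BMF, another BH3-only protein, had a log2 fold change of 0.71, the effector BAX one of 0.36 and the caspase CASP2 one of 0.35. BCL2 had the lowest value of the list, −1.04, and was the 1 member called lower, where 0.528% of all genes were. BBC3 averaged 5.82 FPKM under VIC-1911 and 6.02 FPKM in vehicle, whereas BAX was above vehicle under both drugs, at 14.1, 33.5 and 41.8 FPKM on average in vehicle, VIC-1911 and olaparib.

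The targets of olaparib differed little. PARP1 stood at 84.4, 84.7 and 90.1 FPKM under VIC-1911 and at 80.3, 80.9 and 79.6 FPKM under olaparib, without overlap, but its log2 fold change of −0.08 (SE 0.04) did not pass (edgeR quasi-likelihood adjusted p = 0.188). PARP2 stood at 12.9, 13.2 and 13.2 FPKM and at 10.6, 10.7 and 10.1 FPKM, respectively, and passed (log2 fold change −0.30, edgeR quasi-likelihood adjusted p = 0.00438). PARP3 had a log2 fold change of 0.06 with a standard error of 0.11 and did not pass. In the list of the PARP family and single-strand break repair, 2 of 23 members passed as higher (PARP10 and PARP14, at 0.23 and 0.40) and 1 as lower (PARP2). Over all genes 11.4% were higher and 12.8% lower, and with upper-quartile factors 4 members passed as higher.

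Homologous recombination and the Fanconi pathway had 9 of 35 members lower, where 12.8% of all genes were. The median log2 fold change was −0.13, and the members lower were 4 without VIC-1911 replicate 1 and 5 without olaparib replicate 3. These 4 and 5 are near the 12.8% of the full fit, but fewer of all genes passed as lower in these fits too. Over all genes the numbers lower were 1376 and 1149, respectively, against 1770 in the full fit. BRCA1, which directs breaks to this pathway, stood at 5.05, 5.61 and 5.23 FPKM under VIC-1911 and at 3.55, 4.65 and 3.61 FPKM under olaparib (log2 fold change −0.38). BRCA2, which acts downstream of BRCA1 in the pathway, had a log2 fold change of −0.20 and did not pass (edgeR quasi-likelihood adjusted p = 0.0721), although with the 6 libraries alone it did (adjusted p = 0.0269 in edgeR). FANCI and UBE2T, which act in the ubiquitination of the FANCI and FANCD2 complex, were lower by 0.38 and 0.49 on the log2 scale. Against vehicle BRCA1 and BRCA2 had log2 fold changes of 0.67 and 1.12 under VIC-1911 and of 0.29 and 0.92 under olaparib.

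Androgen-responsive genes were split. Of 28 members 11 passed as higher and 6 as lower, where 11.4% and 12.8% of all genes did. The median log2 fold change was 0.12. KLK3, the gene of prostate-specific antigen, stood at 1863, 1815 and 1746 FPKM under VIC-1911 and at 1628, 1663 and 1682 FPKM under olaparib, and its log2 fold change of −0.10 did not pass (edgeR quasi-likelihood adjusted p = 0.0741). KLK3 did pass in DESeq2 (adjusted p = 0.0338) and without VIC-1911 replicate 3 (adjusted p = 0.0486 in edgeR). MAF, a transcription factor of the leucine zipper class, stood at 4.53, 4.26 and 5.07 FPKM under VIC-1911 and at 8.68, 10.9 and 8.42 FPKM under olaparib (log2 fold change 1.05). NDRG1 (0.77) was higher, and PPAP2A, a lipid phosphatase, was lower (−0.53). In the list of UGT2B genes and androgen metabolism 2 of 10 members passed as higher and 2 as lower, and with 1 library left out those lower were 0 to 2.

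Lipid synthesis was lower under olaparib. Of 31 genes of cholesterol and fatty acid synthesis 20 passed as lower, at a median log2 fold change of −0.26, where 12.8% of all genes did, and the number was 20 also without olaparib replicate 1. INSIG1, which retains the sterol sensor in the endoplasmic reticulum and is itself a target of SREBP factors, stood at 69.2, 66.6 and 70.2 FPKM under VIC-1911 and at 38.5, 35.6 and 38.3 FPKM under olaparib (log2 fold change −0.85, edgeR quasi-likelihood adjusted p = 8.1e-10). SREBF1, one of these factors, stood at 202, 203 and 202 FPKM and at 140, 141 and 141 FPKM, respectively (log2 fold change −0.49). The desaturases SCD (−0.63) and FADS2 (−0.53) were lower too. Against vehicle, INSIG1, SREBF1 and FADS2 had log2 fold changes of 0.25, 0.10 and 0.39 under VIC-1911 and of −0.60, −0.39 and −0.14 under olaparib.

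Proteins that fold others in the endoplasmic reticulum were lower by small amounts. Of 22 members of the list of the unfolded protein response 17 passed as lower, where 12.8% of all genes did. The median log2 fold change was −0.18, and the number passing was 10 without VIC-1911 replicate 2. It was 11 without VIC-1911 replicate 1 or olaparib replicate 3. XBP1, the transcription factor of this response, stood at 127, 143 and 119 FPKM under VIC-1911 and at 80.1, 88.4 and 86.0 FPKM under olaparib (log2 fold change −0.58). The chaperone HSPA5 (BiP) had a log2 fold change of −0.24, and PDIA3 and PDIA6, which form disulfide bonds, had −0.27 and −0.26.

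Targets of ATF4, the factor of the integrated stress response, were low under both drugs. The median log2 fold change of 38 members was −1.72 in VIC-1911 against vehicle and −1.80 in olaparib against vehicle, and in olaparib against VIC-1911 it was −0.13. In the last comparison 17 passed as lower and 4 as higher, where 12.8% and 11.4% of all genes did. SLC7A11, the cystine transporter, stood at 72.5 FPKM on average in vehicle, at 7.29, 7.19 and 6.40 FPKM under VIC-1911 and at 4.24, 4.55 and 4.42 FPKM under olaparib. The amino acid transporters SLC7A5 (−0.43) and SLC1A5 (−0.53) were also lower under olaparib, and KLHL24, which was near vehicle under VIC-1911, was higher (0.66). Of 20 cytosolic tRNA synthetases 6 passed as lower, where 12.8% of all genes did. Among the 6 were MARS (−0.31), YARS (−0.23), GARS (−0.22) and FARSA (−0.21).

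Of 59 nuclear-encoded subunits of the respiratory chain 29 passed as lower, at a median log2 fold change of −0.13, and there were 17 without VIC-1911 replicate 3 or olaparib replicate 3 and 18 without olaparib replicate 1. NDUFB9 and NDUFC1 of complex I, UQCRFS1 of complex III and COX7B of complex IV had log2 fold changes of −0.37, −0.34, −0.35 and −0.37. The respiratory chain and the next 5 lists are to be read against the 11.4% of all genes that passed as higher and the 12.8% that passed as lower. Glycolysis and hypoxia had 5 of 30 members higher and 5 lower, with LDHA at −0.28, TPI1 at −0.22 and BNIP3L at 0.29, and with 1 library left out these were 3 to 5 and 4 to 8. The list of NRF2 targets, glutathione and ferritin had 3 of 23 members higher and 6 lower, with GPX1 at 0.25, ME1 at −0.27 and GCLC at −0.27, and 1 was higher without VIC-1911 replicate 1. Cytosolic ribosomal proteins had 7 of 69 members higher and 7 lower, below the shares of all genes, with RPL3 at 0.25 and RPL37 at −0.23, and with 1 library left out these were 3 to 10 and 2 to 5, and 11 and 5 with upper-quartile factors. The list of heat shock genes had 6 of 21 members lower, with HSPB1 at −0.30 (not passing in DESeq2 or without VIC-1911 replicate 3) and BAG3 at −0.23, and that of snoRNA host genes 4 of 19 higher and 1 lower, with SNHG3 at −0.36 and GAS5 at 0.19. Without VIC-1911 replicate 2 the host genes passing as higher were 1, and without VIC-1911 replicate 1 they were 2.

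Innate immune genes differed in few members, and 11.4% of all genes passed as higher and 12.8% as lower. Of 33 interferon-stimulated genes 2 passed as higher, STAT2 (0.38) and IRF1 (0.92), and 1 as lower, OAS3 (−0.51), and IRF1 did not pass without VIC-1911 replicate 2. Of 15 genes of MHC class I presentation TAP2 was lower (−0.52) and TAP1 was higher (0.24), and TAP1 did not pass when any library was left out. Of 18 NF-kB targets and cytokines 4 passed as higher, namely the cytokine LIF (0.99), NFKB2 (0.37), the inhibitor NFKBIA (0.37) and BCL3 (0.41). LIF stood at 2.43, 2.24 and 2.11 FPKM under VIC-1911 and at 4.12, 4.44 and 4.45 FPKM under olaparib, whose libraries were all above those of VIC-1911. BCL3 did not pass without olaparib replicate 3.

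**Figure D5:**
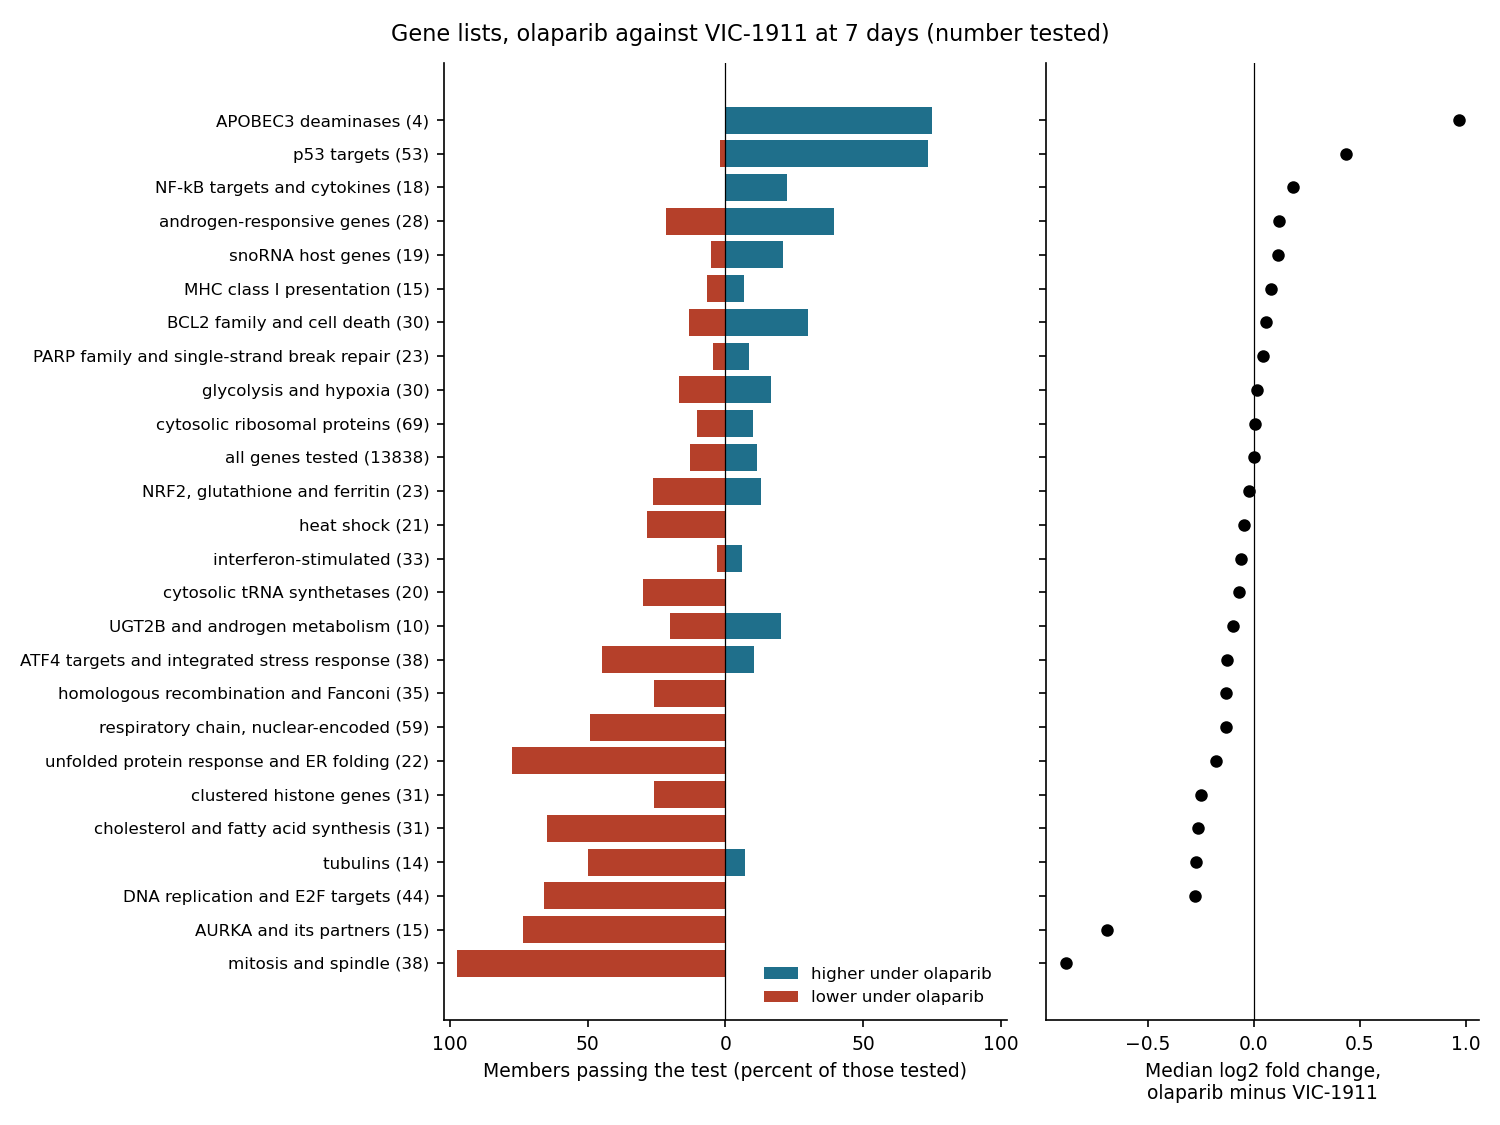
For 25 gene lists and all genes tested, the left panel gives the percent of tested members that passed as higher (blue) or lower (red) under olaparib and the right panel the median log2 fold change, olaparib minus VIC-1911, with the number tested in parentheses. Mitosis and spindle lies lowest (−0.89) and the APOBEC3 deaminases (0.97, 4 genes) and p53 targets (0.44) highest. The APOBEC3 median is uncertain, because APOBEC3C passed the count filter only through the olaparib group.

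The largest single differences lay outside these lists for the most part. SULF2, an enzyme that removes sulfate groups from heparan sulfate, stood at 0.266, 0.406 and 0.225 FPKM under VIC-1911 and at 2.23, 2.52 and 2.27 FPKM under olaparib, a level 8.10-fold higher (log2 fold change 3.02, SE 0.18, edgeR quasi-likelihood adjusted p = 1.1e-12). SULF2 lies on chromosome 20 from 47656197 to 47786616 and overlaps NCOA3 by 681 bases. FAXDC2, a fatty acid hydroxylase domain protein that overlaps CNOT8, stood at 0.607, 0.478 and 0.518 FPKM and at 4.74, 3.15 and 3.44 FPKM, respectively (log2 fold change 2.77). IGFBP3, which binds insulin-like growth factors, stood at 2.07, 1.58 and 1.96 FPKM under VIC-1911, at 9.11, 8.17 and 5.65 FPKM under olaparib, and at 26.3, 27.2 and 30.5 FPKM under both. Vehicle libraries held 2.39 FPKM of IGFBP3 on average. ADRA2A, an adrenergic receptor, had the same order, at 2.99, 2.64, 9.30 and 17.2 FPKM on average in vehicle, VIC-1911, olaparib and combination.

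APOBEC3C, a cytidine deaminase of the family that edits viral DNA, was barely detected under VIC-1911, with 0, 4 and 2 counts, and had 10, 23 and 32 counts under olaparib. It passed the filter of 10 counts in 3 libraries only through the olaparib group, as did LOC101927501 and VCX3A, and its fitted log2 fold change of 3.24 (SE 0.49) rests on so few counts that its size is uncertain. APOBEC3H (1.45) and APOBEC3F (0.49) of the same family also passed as higher, where 11.4% of all genes did. The remaining member tested, APOBEC3B (−0.19), lay in the other direction and did not pass. In DESeq2 1 of the 4 tested members of this family passed, as did 1 without olaparib replicate 1, and at most 2 did when any 1 library was left out. APOBEC3H did not pass without VIC-1911 replicate 3, and APOBEC3F had an adjusted p of 0.0563 in edgeR with the replicate block. LOC101927501, an uncharacterized locus, had a log2 fold change of 3.27 with 7, 7 and 10 counts under VIC-1911 and 37, 95 and 122 under olaparib. UGT2B11 (2.11), a glucuronosyltransferase, CEL (1.90), a lipase, and VCX3A (1.75) have close copies in the genome, SSTR5 (1.87), a somatostatin receptor, overlaps its antisense gene, and ACTA2 (1.75), smooth muscle actin, overlaps the p53 target FAS. The counts of these 5 genes are uncertain.

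Among genes called lower outside mitosis, TGM3, a transglutaminase, stood at 1.03, 1.12 and 0.861 FPKM under VIC-1911 and at 0.285, 0.287 and 0.232 FPKM under olaparib (log2 fold change −1.89, SE 0.27). Vehicle libraries held 2.31 FPKM of TGM3 on average, so it was lowest in olaparib and the combination. TTC29, a protein of cilia and flagella, had the same order (log2 fold change −1.55), at 3.32, 1.47, 0.481 and 0.357 FPKM on average in vehicle, VIC-1911, olaparib and combination. ZP1 (−1.63), a protein of the egg coat, was at 1.34 FPKM in vehicle and 1.62 FPKM under VIC-1911 and at 0.478 FPKM under olaparib. BCYRN1 (−1.58), a short noncoding RNA related to Alu elements, stood at 259, 349 and 345 FPKM under VIC-1911 and at 93.9, 122 and 93.6 FPKM under olaparib, and was at 126 FPKM on average in vehicle. FAM72A (−1.41) and FAM72B (−1.44) are near-identical copies, and their counts are uncertain. LOC101929705, an uncharacterized locus, had a log2 fold change of −1.56.

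The called genes were then read in the other comparisons, each by its own counts. Of the 88 genes called higher under olaparib, 76 passed as higher and 1 as lower in olaparib against vehicle, where 28.6% and 26.5% of all genes did. In VIC-1911 against vehicle 37 of them passed as higher and 10 as lower, where 27.4% and 26.4% of all genes did. Of the 73 genes called lower, 44 passed as higher and 8 as lower in VIC-1911 against vehicle. In olaparib against vehicle 17 passed as higher and 24 as lower, near the shares of all genes in that comparison. In the combination against olaparib, within a run of libraries, 26 of the 88 passed as higher and 1 as lower, and 4 of the 73 passed as higher and 30 as lower, where 4.75% of all genes passed as higher and 7.22% as lower. Each of these comparisons shares libraries with the one that chose the genes. In the separate libraries of 2 days, 12 of 34 tested genes of the first set passed as higher in VIC-1911 against vehicle and 22 did not pass, where 7.5% of all genes were higher. Of 47 tested genes of the second set, 2 passed as higher and 10 as lower, where 7.19% of all genes were lower.

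Transcripts whose level depends on RNA preparation were set beside these results. MALAT1, a nuclear noncoding RNA, stood at 175, 190 and 152 FPKM under VIC-1911 and at 287, 249 and 260 FPKM under olaparib (log2 fold change 0.65), and NEAT1 had a log2 fold change of 0.22, which did not pass without VIC-1911 replicate 3. Of the 9 members of this list that were tested, these 2 passed as higher and 0 as lower, where 11.4% and 12.8% of all genes did. Their median log2 fold change over the 9 members was 0.26, against 0.00152 over all genes tested. The sum of the 10 transcripts of this list, which the most abundant ones dominate, was between 725 and 997 FPKM under VIC-1911 and between 715 and 1025 FPKM under olaparib. These ranges overlap. The basal keratin KRT14 was higher under olaparib, at 1.35, 0.799 and 1.01 FPKM under VIC-1911 against 1.96, 1.88 and 2.76 FPKM under olaparib. Of the 3 basal markers tested, 1 passed as higher (KRT14) and 1 as lower, DST (log2 fold change −0.35). DST did not pass without VIC-1911 replicate 2 or olaparib replicate 2. The sum of 5 basal markers was between 2.72 and 3.11 FPKM under VIC-1911 and between 3.70 and 4.40 FPKM under olaparib. Their part in the differences above was not tested.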

How the data were processed

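RNA-seq of C4-2B cells was used from 12 libraries of 7 days and 6 of 2 days. Per the study's methods the reads were trimmed with Trimmomatic and aligned with STAR to GRCh38, and the submitters' processing notes name STAR 2.6.0. The strand setting of the counting is not given in the sources used here, so overlapping genes are uncertain. The authors deposited raw counts per gene without normalization and FPKM values from a script of their own. Sample records and methods name different RNA and library kits.

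The counts of the 12 libraries of 7 days entered 1 fit in edgeR 4.0.16 under R 4.3.3 (TMM scaling, glmQLFit, glmQLFTest, 8 residual degrees of freedom) on the 13838 genes that reached 10 counts in 3 or more of the 6 libraries compared. Two-sided p-values underwent Benjamini-Hochberg adjustment over all of them. The study's own test was DESeq2. The 2-day counts were fitted separately (12241 genes). Deposited FPKM values served as levels, given as library values or as means with the SD of 3 libraries. A further 28 genes carry dates as names in the deposited counts, and these were tested but are not named.

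Members, the 25 gene lists and tests were chosen with earlier results of these data known. The genes named are the 12 of largest log2 fold change among those called in each direction (a mean of at least 1 FPKM in 1 group, no overlap between libraries), up to 4 passing members of each list by adjusted p, and 17 target and readout genes. Some of these are not reported here. The choice of CDK1, CCNG2, CCNB1, PTTG1, STMN1, TUBG1, TP63, PTPRC, BCL2 and APOBEC3B followed a look at their values. Of 133 such genes 129 had 1 position in the annotation (GENCODE, GRCh38) and 45 overlapped another gene of the table. Lists were described by counts and medians without a set test.

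Total counts per library (4967931 to 19684208 in the 6 libraries) set the precision. The alternatives were DESeq2 1.42.0, upper-quartile factors, library size alone, no filter on counts, a mean FPKM of at least 1 as the filter, the 6 libraries alone, the replicate number as a block, limma 3.58.1 on log2(FPKM + 0.1) and log2(FPKM + 1), and each library left out in turn. The code was tested on simulated data.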

Additional observations from a re-analysis of the deposited data

Results flagged for a closer look

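Differences in the effect of VIC-1911 with and without olaparib were found for target and readout genes. The values are the log2 effect of VIC-1911 in the presence of olaparib less that in its absence, as an interaction in edgeR's quasi-likelihood test with adjustment over all genes tested. Each of the 2 effects lies within a run of library numbers, and they lie in different runs. A log-scale shift shared by all libraries of a run cancels in this term. A difference between runs in the effect of VIC-1911 itself cannot be told apart from it. For AURKA the term was −2.23 (SE 0.14, adjusted p = 1.9e-13), with VIC-1911 against vehicle at 1.86 and the combination against olaparib at −0.37. Terms of the same sign were found for Aurora kinase B and partners of AURKA on the spindle, with AURKB at −1.66 (adjusted p = 1.2e-09), TACC3 at −1.79 (3.5e-14) and TPX2 at −1.91 (3.6e-13). The proliferation genes MKI67 and TOP2A had terms of −2.09 (adjusted p = 4.4e-14) and −1.81 (3.8e-16). Among repair genes BRCA1 had a term of −1.22 (adjusted p = 1.0e-09) and BRCA2 of −1.74 (1.5e-12). PARP1 had a term of −0.74 (adjusted p = 3.5e-11), PARP2 of −0.55 (1.6e-04) and PARP3 of 0.72 (3.4e-04). The p53 targets CDKN1A and MDM2 had terms of −1.57 (adjusted p = 3.9e-17) and −0.57 (2.3e-08), and KLK3 had one of 0.64 (1.6e-10). For CDKN1A the combination libraries still lay above the olaparib libraries, so its term stands for a smaller rise, whereas for AURKA the effect changed sign. For the other genes the term alone does not tell a smaller effect from a change of sign. Groups of 3 libraries were not tested for single values that lie apart.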

How the results depend on the processing

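The 88 genes called higher under olaparib became 158 with no filter on low counts, 46 with a mean FPKM of at least 1 as the filter, and 57 and 17 with limma on log2(FPKM + 0.1) and log2(FPKM + 1). The 73 called lower became 38 with the FPKM filter and 18 with limma on log2(FPKM + 1), whose larger pseudocount shrinks low levels. With 1 library left out, those called higher were 78 to 92, those called lower 59 to 80, those passing as higher 1153 to 1343 and those passing as lower 1149 to 1431, and 46 of the 88 and 34 of the 73 were called each time. DESeq2 called 72 of the 88 and 57 of the 73. No called gene changed sign under these settings. Of the genes that passed, 47.2% were higher, against 55.2% with library size alone, 43.8% with DESeq2 and 36.4% with limma on log2(FPKM + 0.1), while the median of all genes moved by less than 0.1 on the log2 scale. Among the called genes at 2 days, DESeq2 gave 7 higher of those higher under olaparib, and 1 higher and 5 lower of those lower under olaparib, where edgeR gave 12, 2 and 10, and with 1 library left out these were 8 to 11, 2 to 3 and 7 to 9. PARP3, which did not pass, went from 0.06 to between −0.064 and 0.22 with 1 library left out, the lowest without VIC-1911 replicate 1. Libraries of the same replicate number correlated by 0.064, 0.061 and 0.019 in their deviations, too little to pair them, although each correlated best with its own number. With the replicate number as a block 88 and 71 genes were called, 87 and 70 of them shared, APOBEC3F did not pass (adjusted p = 0.0563, edgeR), and of the 12, 2 and 10 called genes at 2 days 11, 2 and 10 remained in number. Low counts limit APOBEC3C and other genes under 1 FPKM.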

Other observations

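The following genes were among those called and were picked after their values were seen, from no list fixed for them. The inhibitors of helix-loop-helix factors ID1 and ID3 were higher under olaparib. ID1 stood at 4.23, 2.73 and 7.07 FPKM under VIC-1911 and at 16.5, 14.8 and 11.3 FPKM under olaparib (log2 fold change 1.52, SE 0.19, edgeR quasi-likelihood adjusted p = 4.7e-07). ID3 stood at 6.19, 4.92 and 8.08 FPKM and at 16.5, 18.7 and 16.1 FPKM, respectively (log2 fold change 1.43). In both genes the lowest olaparib library lay above the highest VIC-1911 library. THBS1, the matrix glycoprotein thrombospondin 1, stood at 24.9, 21.6 and 23.4 FPKM under VIC-1911 and at 53.2, 51.4 and 51.9 FPKM under olaparib (log2 fold change 1.19). TGFB2, a ligand of the TGF-beta family, and SNAI2, a zinc finger repressor, had log2 fold changes of 1.35 and 1.21. TP53I3, an oxidoreductase on the list of p53 targets, stood at 2.37, 1.93 and 1.87 FPKM and at 6.98, 6.35 and 6.10 FPKM, respectively (log2 fold change 1.68). The annotation of TP53I3 overlaps FAM228B by 8429 bases, so its counts are uncertain. Lower under olaparib were the secreted signals WNT5A (−1.22) and CXCL12 (−1.03).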
